A study of Mus musculus with 24 samples.

Results

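The comparison described here asks whether the difference between 2 sorted mammary cell populations is the same in tumours as in normal glands. Lin-CD29hiCD24+ cells, the gate used for mammary stem cells, were set against Lin-CD29+CD24+ cells, the more differentiated gate, first in normal glands and then in tumours, and the normal difference was subtracted from the tumour difference. This difference of differences is called the interaction. It rests on 16 of the 24 arrays of the series, namely 5 tumours (A to E) and 3 gland pools (F to H) with 1 array of each gate. Of 13485 genes tested, 5665 had an interaction that passed the test, at a Benjamini-Hochberg adjusted p under 0.05 with limma, and these are the members described below.

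Tumours were mammary adenocarcinomas of C57BL6/J mice of genotype Apc+/1572T, which carry a truncated allele of Apc, a negative regulator of Wnt signalling. Normal cells came from pooled glands of C57BL6/J mice of genotype Apc+/+, and no age is used here. Each population was sorted as 10000 cells, and its RNA was amplified by a protocol with repeated amplification before hybridisation to whole-genome Affymetrix arrays. Lin- denotes cells depleted of lineage-marked cells, the parent fraction of both gates. The replicates are tumours and pools, not cells. The sorted material is bulk RNA. A change in the number of cells of a type and a change in RNA per cell therefore cannot be told apart.

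The mammary ducts have an inner layer of luminal cells, which carry keratins 8, 18 and 19 and sense hormones, and an outer basal layer, which carries keratins 5 and 14, the transcription factor p63 and a contractile smooth-muscle apparatus. CD29 is beta-1 integrin, which basal cells use to hold on to the basement membrane, and cells of the CD29hiCD24+ gate are known to be rich in basal cells, including those that can regenerate a gland on transplantation. Wnt signals sustain these cells, and loss of Apc function releases beta-catenin to switch on Wnt target genes.

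The RNA of the sorting marker was checked first. Itgb1, which encodes CD29, had log2 signals of 9.50, 9.11 and 9.78 in normal CD29+CD24+ arrays of pools F, G and H and 9.83, 10.42 and 10.84 in normal CD29hiCD24+ arrays. In tumours A to E it read 10.23, 10.39, 10.15, 9.72 and 10.31 in CD29+CD24+ arrays and 10.70, 11.32, 11.16, 10.63 and 9.98 in CD29hiCD24+ arrays. The gate difference was 0.90 in normal glands (adjusted p = 0.0588) and 0.60 in tumours (adjusted p = 0.268), with an interaction of -0.30 ± 0.48 (SE, adjusted p = 0.67), so that its gate difference passed the threshold neither in normal glands nor in tumours. With the 3' minus 5' actin signal, taken as a sign of short RNA, as a covariate the Itgb1 interaction was -1.32 (adjusted p = 0.0044). Cd24a was high in all 16 arrays, between 12.92 and 15.47, but it had a called interaction, with a positive sign. That call was lost with the actin covariate, with only the 16 gate arrays, and without pool F, G or H or tumour B, C or D.

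In normal glands 6281 genes (46.6% of those tested) differed between the gates, 2871 (21.3%) higher and 3410 (25.3%) lower in CD29hiCD24+ cells, and in tumours 565 genes (4.19%) did. This fit did not pair the 2 gates of a tumour, which correlated at 0.395 to 0.651 with group means removed. Tumour gate differences may therefore have been missed more easily, and a count with the gates paired is not given. The interaction passed the test for 42% of genes, negative for 2669 (19.8%) and positive for 2996 (22.2%), so any count of members below has to be read against those shares. For 5028 of the 5665 genes (88.8%) the normal gate difference passed the test and the interaction ran against it, and these are called shrunken. Among the shrunken genes 4866 (96.8%) had no tumour gate difference past the threshold, 73 kept a called difference of the same sign and 89 had a called difference of the opposite sign. Across group means of all genes tested, the 2 tumour gates correlated at r = 0.985 and the 2 normal gates at r = 0.846, given as a description over genes.

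Each shrunken gene was sorted by which tumour population had moved. The difference between tumours and pools was tested within CD29+CD24+ cells and within CD29hiCD24+ cells, and the source is the population in which that difference passed the test in the direction that shrinks the gate difference. Of the 2368 shrunken genes that were higher in normal CD29hiCD24+ cells, 770 (32.5%) gained signal in tumour CD29+CD24+ cells, 1068 (45.1%) lost signal in tumour CD29hiCD24+ cells, 469 (19.8%) did both and 61 passed neither test. Of the 2660 that were higher in normal CD29+CD24+ cells, 1633 (61.4%) lost signal in tumour CD29+CD24+ cells, 535 (20.1%) gained signal in tumour CD29hiCD24+ cells, 385 (14.5%) did both and 107 passed neither test. For comparison, 43.5% of all genes tested differed between tumour and normal CD29+CD24+ cells, 16.4% higher and 27.1% lower in tumours. Between tumour and normal CD29hiCD24+ cells 38.6% differed, 15.6% higher and 22.9% lower. Without pool F the 469, 535 and 385 genes became 300, 333 and 157, and without pool H the 469 and 385 became 283 and 254. These shares follow from the same contrasts that sorted the genes and support nothing by themselves.

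**Figure D1:**
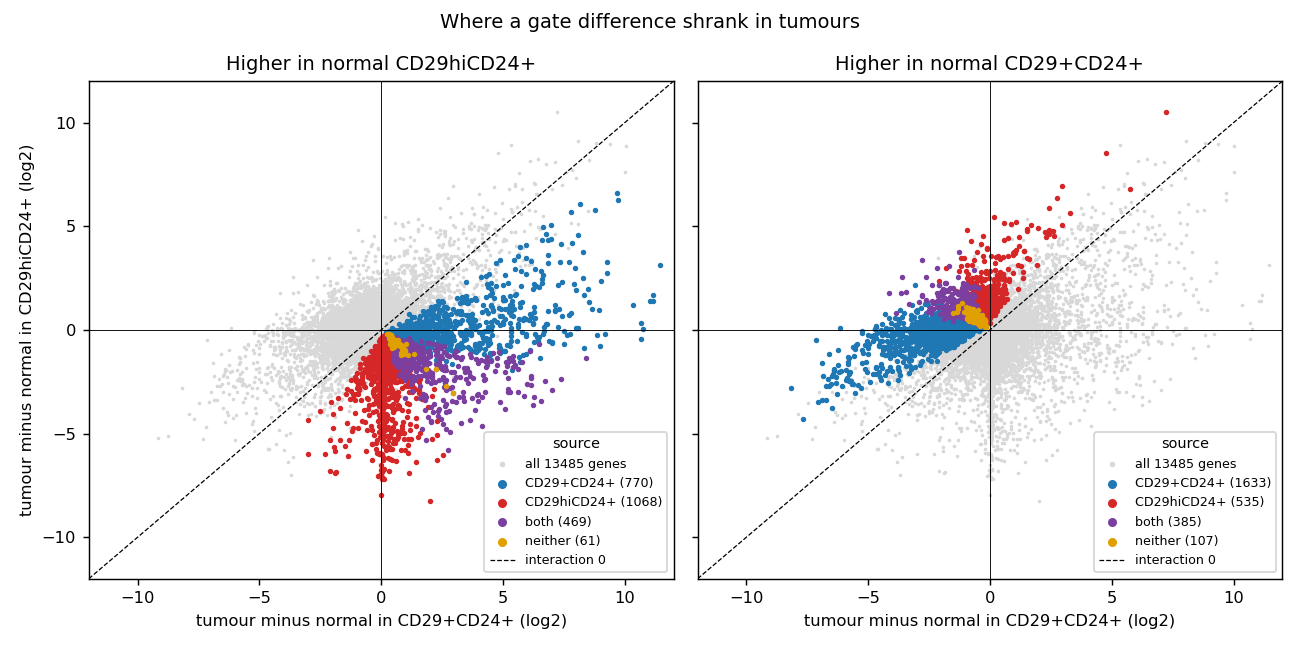
Each point is a gene, with the tumour minus normal log2 difference in CD29+CD24+ cells on the x axis and in CD29hiCD24+ cells on the y axis, for genes higher in normal CD29hiCD24+ cells (left) and in normal CD29+CD24+ cells (right), and the interaction is the vertical distance from the dashed line. Gained genes run along the positive x axis on the left (770) and lost genes down the negative y axis (1068), and on the right most of the coloured points (1633) lie to the left of 0.

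The genes gained in tumour CD29+CD24+ cells had a median log2 level of 6.47 in normal CD29+CD24+ cells and 9.50 in normal CD29hiCD24+ cells, and of 9.87 and 9.83 in the same tumour populations. In 150 of the 770 the signal was also higher in tumour than in normal CD29hiCD24+ cells. Such shared moves occurred in the other classes too. Of the 1068 genes lost in tumour CD29hiCD24+ cells 48 were also lower in tumour CD29+CD24+ cells. Of the 1633 lost in tumour CD29+CD24+ cells 172 were also lower in tumour CD29hiCD24+ cells. Of the 535 gained in tumour CD29hiCD24+ cells 39 were also higher in tumour CD29+CD24+ cells. The genes lost in tumour CD29hiCD24+ cells had medians of 5.81 and 8.78 in the normal populations and 5.95 and 6.09 in the tumour populations. Median gate differences of the gained class were 2.30, 1.95 and 2.25 in pools F, G and H and ran from -0.29 to 0.12 in the 5 tumours. In the lost class they were 1.72, 1.61 and 1.71 in the pools and ran from -0.10 to 0.04 in the tumours. In the low band, a narrow range of values at or under 2.83 that holds 37.2% to 41.6% of an array's values, lay the normal CD29+CD24+ mean of 84 gained genes (10.9%) and 193 lost genes (18.1%), and differences that start there are compressed.

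**Figure D2:**
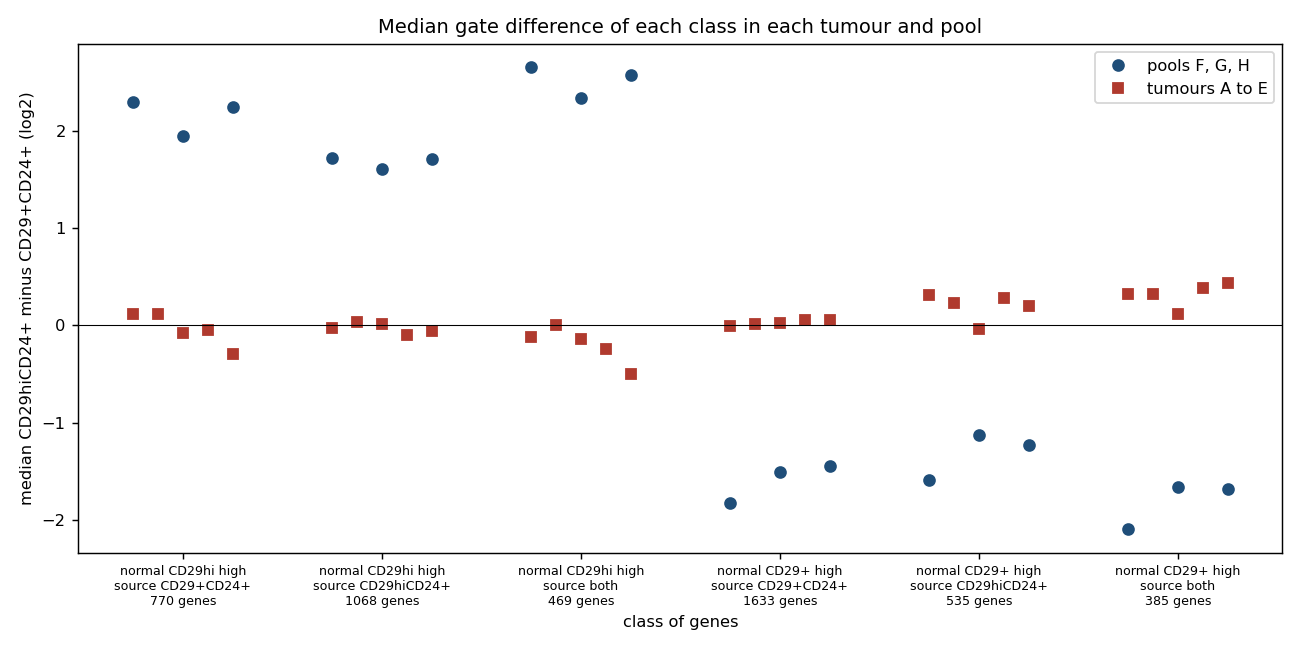
Each point is the median gate difference (log2, CD29hiCD24+ minus CD29+CD24+, y axis) of 1 class of shrunken genes in 1 tumour (squares) or 1 pool (circles), for the 6 classes on the x axis. Pools sit at 1.61 or more in the 3 classes on the left, and the tumours of every class lie between -0.50 and 0.44, which the choice of the genes fixes in part.

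The difference between tumours and pools in the Lin- fraction did not enter the rule that chose and sorted the genes. Lin- is the parent fraction and holds the cells of both gates. A shift in 1 gate therefore tends to recur in this fraction, and the counts below are not independent support. Its arrays come from the same tumours and pools, and they shared in the variance estimate and the choice of probe sets. With only the 16 gate arrays 5541 interactions were called, 5344 of them among the 5665. Of the 770 gained genes 622 (80.8%) were higher in tumour Lin- cells and 0 were lower, against 13.9% higher and 26.6% lower among all genes. Of the 1068 lost genes 16 (1.5%) were higher and 214 (20%) lower. Among the genes lost from tumour CD29+CD24+ cells, 1400 of 1633 (85.7%) were lower in tumour Lin- cells. Of the 535 genes gained in tumour CD29hiCD24+ cells, 71 (13.3%) were higher in tumour Lin- cells, near the 13.9% of all genes.

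Several basal keratins and basement membrane genes were gained in the tumour CD29+CD24+ gate. Krt14, a defining basal keratin, read 4.20, 3.99 and 3.72 in normal CD29+CD24+ cells and 14.35, 14.41 and 14.28 in normal CD29hiCD24+ cells. In the 5 tumours it lay between 14.49 and 14.89 in CD29+CD24+ cells and between 14.42 and 14.80 in CD29hiCD24+ cells. All 5 tumours were therefore above all 3 pools in CD29+CD24+ cells, by a log2 difference of 10.67 on average, while the difference was 0.32 in CD29hiCD24+ cells (adjusted p = 0.579), with an interaction of -10.35 ± 0.58 (SE, adjusted p = 3.27e-11). Krt5, the partner keratin of Krt14, read 3.15, 3.06 and 2.50 in normal CD29+CD24+ cells and 13.51 to 14.23 in tumour CD29+CD24+ cells (interaction -9.64 ± 0.65). Krt17, a keratin of basal and stressed epithelium, gave -10.69 ± 0.74 and Col17a1, a hemidesmosomal collagen, -9.72 ± 0.62.

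Of 16 basal keratin and adhesion genes tested, 9 had a negative and 1 a positive interaction, with a median of -2.41 against 0.04 over all genes. In 8 of the 9 the gain in CD29+CD24+ cells was the source, among them the laminin-332 chains Lama3 (-6.96) and Lamb3 (-3.92), the cytolinker Dst (-3.52) and P-cadherin, Cdh3 (-1.30, adjusted p = 0.0315). Cdh3 lost its call in several alternatives, for example at an adjusted p of 0.0588 when only the 16 gate arrays were fitted. Krt15 was the exception among the keratins: it read 11.93, 12.52 and 12.72 in normal CD29hiCD24+ cells and 6.67 to 9.27 in tumour CD29hiCD24+ cells, so its interaction of -5.24 ± 1.23 came from loss in that gate. Plec, the gene of the linker protein plectin, had the positive interaction (1.43). Itga6 and Itgb4, the 2 chains of the hemidesmosomal integrin, did not pass the test, but Itga6 was called in 7 alternatives, among them the random replicate block (-0.41, adjusted p = 0.0278), and Itgb4 with the fixed block (0.83, adjusted p = 0.0402).

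Most transcription factors of the basal lineage also had a negative interaction. Of 15 tested, 13 had a negative and 0 a positive interaction (2 not called), with a median of -4.01. In 8 of the 13 the source was the tumour CD29+CD24+ gate, in 5 both gates, and in 0 the CD29hiCD24+ gate alone. Trp63, which encodes p63, the master regulator of basal epithelium, read 2.77, 2.74 and 2.52 in normal CD29+CD24+ cells and 12.02, 12.02 and 11.94 in normal CD29hiCD24+ cells. In tumours it lay at 13.17, 12.83, 13.27, 12.52 and 13.35 in CD29+CD24+ cells and at 13.59, 13.55, 13.27, 13.22 and 12.39 in CD29hiCD24+ cells, so that both tumour populations stood above both normal ones. Its interaction was -9.14 ± 0.46 (SE, adjusted p = 7.99e-12).

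Snai2, the basal factor Slug, had an interaction of -9.75 ± 0.56 and lay between 12.85 and 13.72 in tumour CD29+CD24+ cells against 3.67 to 4.80 in the pools. Bcl11b, a zinc-finger factor of basal cells, gave -6.69 ± 0.54. Id4, an inhibitor of helix-loop-helix factors, gave -9.75 ± 0.71, with a gain in CD29+CD24+ cells of 8.41 and a fall by 1.34 in CD29hiCD24+ cells (adjusted p = 0.0407). Sox9 and Tbx3, which luminal cells also use, did not pass the test, with interactions of 0.58 and 0.43. Tbx2 lost its call without pool F, among other alternatives, which left 12 negative.

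**Figure D3:**
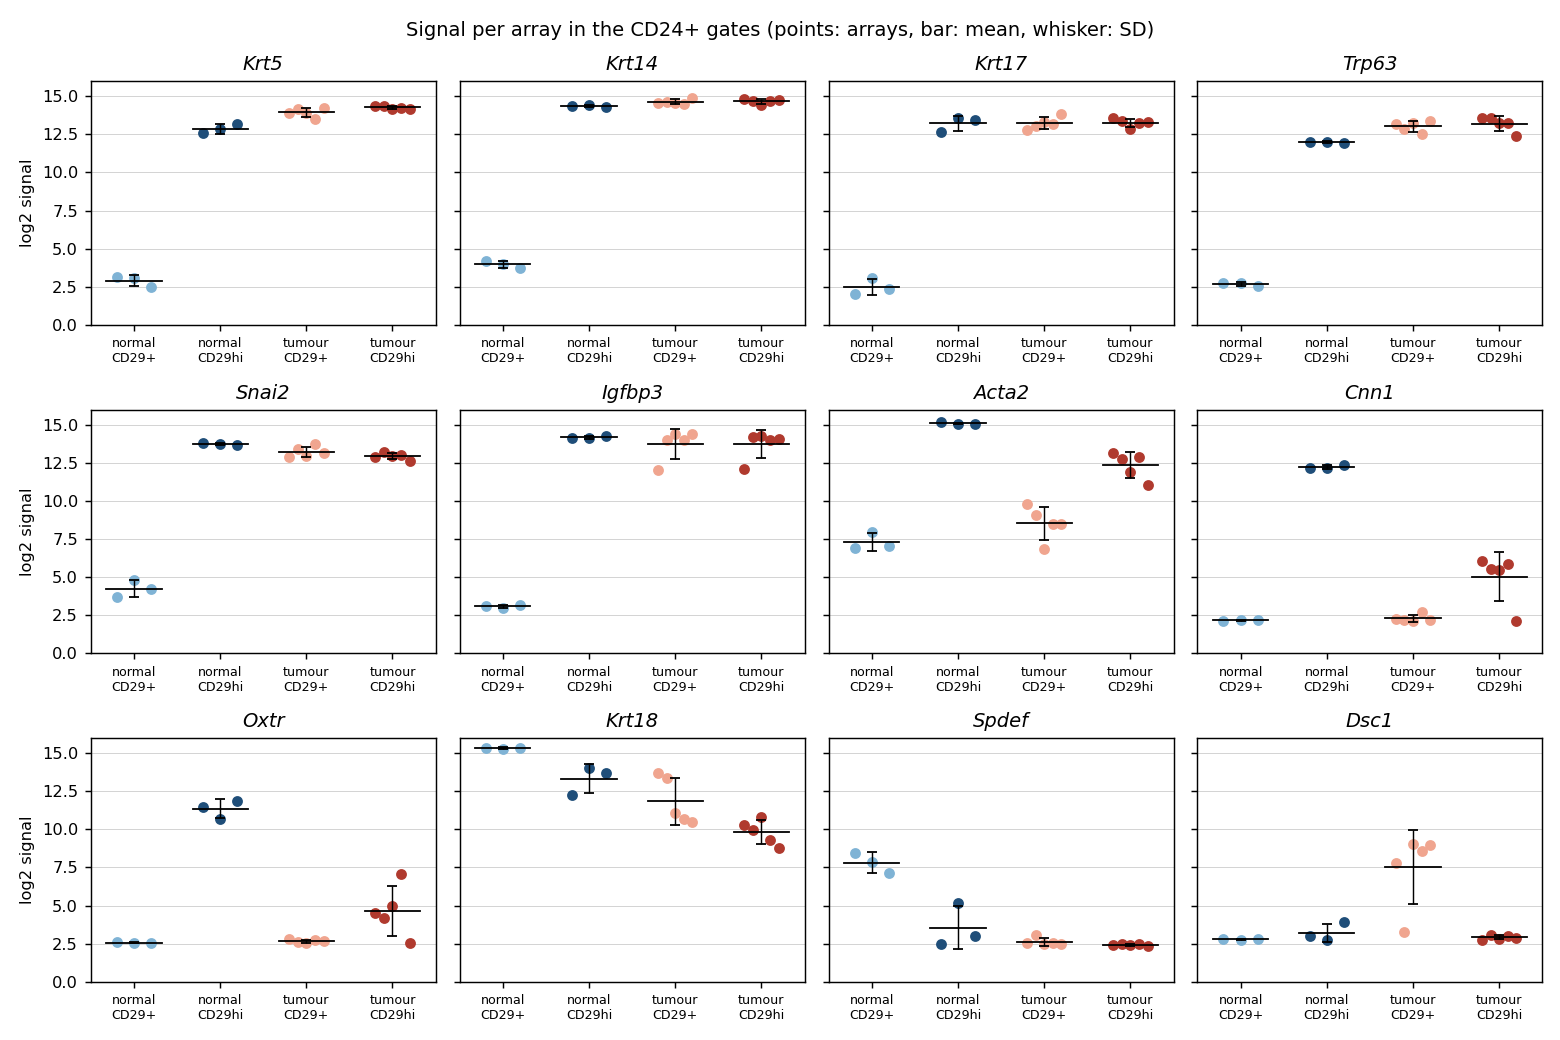
Points are single arrays (log2 signal, y axis) of the 4 gate populations (x axis; normal n = 3, tumour n = 5), with the mean as a bar and the SD as a whisker, for 12 genes. Krt5, Krt14, Krt17, Trp63, Snai2 and Igfbp3 are low only in normal CD29+CD24+ arrays, while Acta2, Cnn1 and Oxtr are highest in normal CD29hiCD24+ arrays.

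Genes of the contractile apparatus, the other hallmark of basal cells, were mostly lost from the tumour CD29hiCD24+ gate. All 16 contractile genes tested had a negative interaction (0 positive), with a median of -6.54, and 15 were lower in tumour than in normal CD29hiCD24+ cells. The source was loss in that gate for 9 genes, both gates for 6, and gain in CD29+CD24+ cells for 1, Cnn2, which lost its call without pool H (adjusted p = 0.093). Cnn1, smooth-muscle calponin, read 12.17, 12.13 and 12.34 in normal CD29hiCD24+ cells and 6.05, 5.55, 5.49, 5.89 and 2.15 in those of tumours A to E. Its level was 2.11 to 2.72 in CD29+CD24+ cells of tumours and pools alike, at or near the low band. The interaction of Cnn1 was -7.32 ± 1.09 (SE, adjusted p = 2.25e-05), and tumour E had the lowest signal.

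Oxtr, the oxytocin receptor through which milk ejection is triggered, read 11.48, 10.68 and 11.89 in normal CD29hiCD24+ cells. In tumour CD29hiCD24+ cells it read 4.53, 4.19, 4.94, 7.09 and 2.51, so all 5 tumours lay below all 3 pools (interaction -6.80 ± 1.02, adjusted p = 2.29e-05). Acta2, smooth-muscle actin, kept part of its gate difference: it lay at 15.08 to 15.15 in normal and 11.07 to 13.14 in tumour CD29hiCD24+ cells, and at 6.86 to 9.81 in tumour CD29+CD24+ cells. The tumour gate difference of Acta2 was 3.80 (adjusted p = 0.00499) against 7.80 in normal glands.

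Myl9, the regulatory light chain of smooth-muscle myosin, also kept a gate difference in tumours (3.64, adjusted p = 0.0167) while it fell by 4.79 in CD29hiCD24+ cells and gained 2.68 in CD29+CD24+ cells. Tpm2, beta-tropomyosin, gained 5.26 in CD29+CD24+ cells and fell by 1.52 in CD29hiCD24+ cells. The mean of the 16 genes was 11.83 to 12.24 in normal and 6.73 to 8.43 in tumour CD29hiCD24+ arrays, with tumour E lowest, and 4.78 to 5.06 in normal and 6.26 to 6.53 in tumour CD29+CD24+ arrays. All 16 kept their call without the CD29hiCD24+ array of pool F and without the whole of pool F.

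Promoter sequences are shown for called members of the contractile and the basal keratin and adhesion lists, from RefSeq on build GRCm38.p6, taken as the 250 bases before a gene's start and read 5′ to 3′ on the gene's strand. The search covered 4 motifs on both strands: the CArG box, the site of serum response factor in smooth-muscle genes; CAGGTG, the E-box that Snail-family factors such as Slug bind; TGANTCA, the AP-1 site; and ATCAAAG, a site of TCF factors. Of the 10838 tested genes with a promoter in the table they were in 1.44%, 18.8%, 6.18% and 2.98%. In the contractile list the CArG box, CAGGTG and TGANTCA were each in 2 of 13 genes (15.4%) and ATCAAAG in 0. In the basal keratin and adhesion list CAGGTG was in 6 of 9 genes (66.7%) and the other motifs in 0. Besides Krt5, Lamb3 and Dst, these 6 were Itga3, Lama5 and Cd151, which had no called interaction. In the basal factor list CAGGTG was in 0 of 6 genes, and among 610 genes gained in tumour CD29+CD24+ cells it was in 17.4%, under the share of all tested genes. The 60-base stretches below, chosen after the search, hold a CArG box in 2 contractile genes or CAGGTG in 3 gained basal genes, in capitals. They lie at chr2:156775278-156775337 (plus strand, Myl9), chr10:79988519-79988578 (plus, Cnn2), chr15:101712999-101713058 (minus, Krt5), chr1:193302183-193302242 (plus, Lamb3) and chr1:34011433-34011492 (plus, Dst).
Myl9: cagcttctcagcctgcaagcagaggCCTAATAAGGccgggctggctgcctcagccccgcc
Cnn2: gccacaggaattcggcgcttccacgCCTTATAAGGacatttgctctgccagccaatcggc
Krt5: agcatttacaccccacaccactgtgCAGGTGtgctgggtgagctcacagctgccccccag
Lamb3: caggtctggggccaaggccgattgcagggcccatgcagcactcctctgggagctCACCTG
Dst: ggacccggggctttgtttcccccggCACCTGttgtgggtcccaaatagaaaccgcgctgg
The match starts 161 bases before the start of Myl9, 56 before that of Cnn2, 128 before Krt5, 6 before Lamb3 and 137 before Dst. Myl9 and Cnn2 differed in source, both gates for Myl9 and gain for Cnn2, and a match describes letters in this window only.

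Wnt feedback genes and targets, which beta-catenin switches on and many of which damp the pathway in turn, mostly had a smaller gate difference in tumours. Of 24 tested, 19 had a negative and 0 a positive interaction, with a median of -2.69, and of the 17 shrunken ones 10 were gained in CD29+CD24+ cells, 3 lost in CD29hiCD24+ cells and 4 both. Wif1, a secreted Wnt inhibitor, read 3.15, 3.14 and 3.29 in normal CD29+CD24+ cells, 11.14, 11.22 and 11.66 in normal CD29hiCD24+ cells, 14.46 to 14.76 in tumour CD29+CD24+ cells and 13.95 to 14.89 in tumour CD29hiCD24+ cells. Both tumour gates thus lay above both normal gates, by 11.44 in CD29+CD24+ cells and 3.14 in CD29hiCD24+ cells (interaction -8.31 ± 0.60).

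Axin2, the standard readout of Wnt signalling, followed the same order at lower levels. It read 2.74, 2.72 and 2.96 in normal CD29+CD24+ cells, 4.88, 4.02 and 4.92 in normal CD29hiCD24+ cells, and 6.84 to 8.24 and 6.96 to 8.65 in the tumour populations. The interaction was -1.53 ± 0.50 (SE, adjusted p = 0.0178), and its adjusted p was 0.0507 without the CD29hiCD24+ array of pool F, 0.0998 without pool F and 0.0672 without pool H. The rise itself in both tumour gates was 4.88 and 3.35.

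Lgr5, a receptor for R-spondins and a stem cell marker, read 2.04 to 2.13 in normal CD29+CD24+ and 9.81 to 9.88 in normal CD29hiCD24+ cells. In tumours it lay between, at 7.45 to 9.01 in CD29+CD24+ and 6.58 to 8.51 in CD29hiCD24+ cells, so that it had gained in the first and fallen in the second (interaction -8.36 ± 0.77). Ccnd2, cyclin D2, read 1.95 to 2.03 in normal CD29+CD24+ cells and 8.83 to 10.72 in the tumours (interaction -7.96 ± 0.63). Procr, the protein C receptor that marks a mammary stem cell population, gave -6.18 ± 0.86, with a gain in the CD29+CD24+ gate. Sfrp2, a secreted antagonist, and Myc were lost in tumour CD29hiCD24+ cells, by 2.50 and 2.13.

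Notum, a secreted enzyme that inactivates Wnt ligands, had no called normal gate difference (-0.20, adjusted p = 0.821) and lay at 2.03 to 2.59 in all 6 normal gate arrays, within the low band. In tumours it read 9.10, 9.01, 7.50, 9.79 and 9.24 in CD29+CD24+ cells of A to E and 7.49, 6.86, 5.92, 7.26 and 6.62 in CD29hiCD24+ cells, lower in the second gate in all 5 tumours. The interaction was -1.90 ± 0.64 (SE, adjusted p = 0.0208), and lost its call without tumour E, pool F, pool G or pool H (adjusted p 0.0517 to 0.0839). Among 24 Wnt ligands and receptors 9 were negative and 4 positive, with a median of -0.45. Wnt10a (-4.40), Fzd1 (-4.54) and Fzd2 (-3.75) were gained in tumour CD29+CD24+ cells, and Wnt4 (5.06), a ligand made downstream of progesterone, was lost from them.

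Of 19 ligands, receptors and binding proteins of the EGF and IGF families 10 were higher and 3 lower in tumour than in normal CD29+CD24+ cells. The interaction was negative for 10 and positive for 3, with a median of -2.69. Igfbp3, which binds IGFs in the extracellular space, had the largest interaction among all gained genes, -11.12 ± 0.85 (SE, adjusted p = 3.23e-09). It read 3.12, 2.98 and 3.16 in normal CD29+CD24+ cells, 14.11 to 14.24 in normal CD29hiCD24+ cells, and 12.03, 14.00, 14.39, 13.97 and 14.37 in tumour CD29+CD24+ cells, with tumour A below the others. The EGF receptor, Egfr, gained 5.78 in the CD29+CD24+ gate (interaction -5.90 ± 0.48), and Nrg1, an ERBB ligand, gave -4.19 ± 0.89. Btc, betacellulin, an EGFR ligand, ran the other way: it fell by 5.24 in tumour CD29+CD24+ cells (interaction 5.20 ± 0.71). Erbb3, a neuregulin receptor, gained 2.04 in tumour CD29hiCD24+ cells.

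In the TGF-beta, BMP and Id list 12 of 22 were negative and 3 positive, with a median of -1.52. Fst, follistatin, an antagonist of activins, read 4.57 to 4.95 in normal CD29+CD24+ cells and 13.46 to 14.44 in tumour CD29+CD24+ cells (interaction -9.36 ± 0.52). Bmp7 gave -5.45 ± 0.54 by a gain in CD29+CD24+ cells. Of 20 Notch genes 9 were negative and 3 positive, with a median of -0.57, led by the ligands Dll1 (-7.25) and Jag2 (-5.66). The positive count was 0 without pool F and 1 without its CD29hiCD24+ array.

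Matrix genes also lost a difference that ran from 5.91 (median normal gate difference) to 0.32 in tumours. Of 30 collagen and matrix genes 23 were negative and 0 positive, with a median interaction of -4.73, and 9 were gained in CD29+CD24+ cells, 3 lost in CD29hiCD24+ cells, 9 both and 2 neither. Sparc, a matrix-binding glycoprotein, gained 7.39 in tumour CD29+CD24+ cells and fell by 2.35 in tumour CD29hiCD24+ cells (interaction -9.73 ± 0.61). Mmp2, a matrix metalloprotease, gave -9.97 ± 0.65 by the same 2 routes. Without the CD29hiCD24+ array of pool F, 19 of the 23 kept their call, Col1a2, Col3a1, Col15a1 and Fbln1 being the members lost. Of 19 genes of the mesenchymal transition list 10 were negative and 1 positive (median -3.49), with Vim, vimentin, at -8.90 ± 0.86 from both gates.

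**Figure D4:**
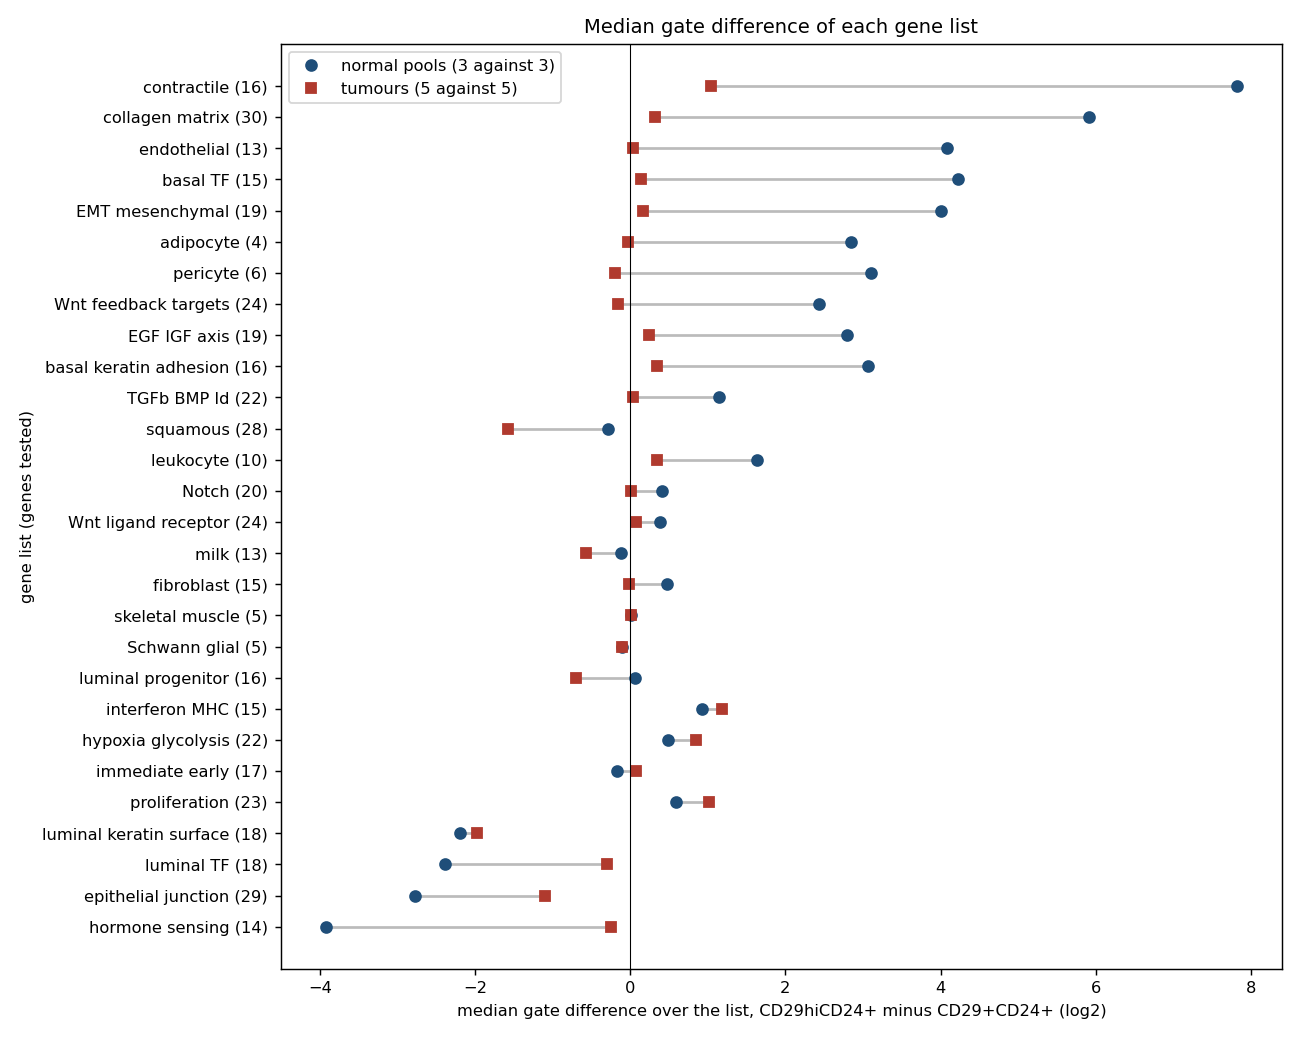
Each row is a gene list (genes tested in parentheses), with the median gate difference (log2, CD29hiCD24+ minus CD29+CD24+, x axis) in normal pools (circles) and in tumours (squares), joined by a line. Contractile genes sit at 7.82 in pools and 1.04 in tumours, and hormone-sensing genes at -3.92 and -0.25.

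Of the other genes lost from tumour CD29hiCD24+ cells, Il17b, an IL-17 family cytokine, had the cleanest pattern. It read 10.78, 9.88 and 10.13 in normal CD29hiCD24+ cells, 2.01 to 2.97 in those of tumours, and 1.87 to 1.92 in the CD29+CD24+ cells of tumours and pools (interaction -7.95 ± 0.83, adjusted p = 2.92e-07). Col14a1, a fibril-associated collagen, gave -8.58 ± 1.64, with 12.70 to 13.07 in the pools and 2.71 to 8.83 in the tumours, tumour E lowest. Glycam1, a mucin of milk and of lymph node vessels, had the largest interaction of this class, -10.25, with the large SE of 3.10 (adjusted p = 0.0112), and missed the threshold without pool F (adjusted p = 0.053). It lay at 11.06 to 13.00 in normal CD29hiCD24+ arrays and in the low band in tumours B to E, while tumour A read 12.35 and 9.35 in its CD29+CD24+ and CD29hiCD24+ arrays.

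Markers of cells other than epithelium were looked at list by list. All 10 endothelial genes with a negative interaction (0 of 13 were positive) were lost in tumour CD29hiCD24+ cells, with a list median of -4.05. The mean of the list was 9.38, 6.58 and 7.48 in normal CD29hiCD24+ arrays of pools F, G and H, 3.76 to 3.94 in normal CD29+CD24+ arrays and 3.40 to 4.24 in tumour CD29hiCD24+ arrays. Cdh5, VE-cadherin, which joins endothelial cells, read 8.97, 6.29 and 6.48 in normal CD29hiCD24+ arrays and 2.42 to 2.80 in tumour CD29hiCD24+ arrays. Without the CD29hiCD24+ array of pool F 8 of the 10 kept their call. The part of endothelial RNA in the 1068 genes lost from tumour CD29hiCD24+ cells was not tested.

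The adipocyte list mean was 8.96, 6.41 and 7.37 in the same 3 normal arrays and 4.08 to 5.16 in tumour CD29hiCD24+ arrays. Only 4 adipocyte genes were tested, of which 2 were negative and 1 positive, with 1 negative without tumour A, B, C, D or E. Fabp4, a fatty-acid carrier of fat and endothelial cells, gave -8.56 ± 1.75. The pericyte mean was 5.88 to 6.51 in normal and 4.39 to 5.58 in tumour CD29hiCD24+ arrays, with 3 of 6 genes negative and 2 positive. These counts were 1 and 0 without pool F, 1 and 1 without pool H, 3 and 0 without pool G, and 3 and 1 without tumour B or E. The leukocyte mean was 7.75 in pool F and 3.07 and 3.09 in pools G and H, against 3.86 to 5.26 in tumours, with 1 of 10 genes negative and 0 positive. Pool F thus stood apart in its CD29hiCD24+ array for markers of both blood vessels and blood cells. Of 15 fibroblast genes 6 were negative and 0 positive, and the source was gain in CD29+CD24+ cells for 4, loss in CD29hiCD24+ cells for 1 and neither for 1, with 4 negative without that array and 3 without pool F or pool H.

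The luminal keratins 8, 18 and 19 had no called interaction. Krt18 read 15.34, 15.26 and 15.37 in normal CD29+CD24+ cells and 12.26, 14.00 and 13.73 in normal CD29hiCD24+ cells. In tumours it read 13.67, 13.38, 11.06, 10.65 and 10.46, and 10.30, 9.99, 10.80, 9.33 and 8.79, so that it fell in both gates, by 3.48 and 3.49, with an interaction of -0.01 ± 1.20 (SE, adjusted p = 0.996). Krt8 and Krt19 had interactions of -0.68 (adjusted p = 0.729) and 0.34 (adjusted p = 0.915). With these SEs, 1.20 for Krt18, a sizeable difference either way could go unseen. Among 18 luminal keratin and surface genes 1 was negative, 4 positive and 13 not called, with 1 positive without pool F.

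Krt23 was the negative member of that list, and its gate difference turned round. It read 9.15, 9.62 and 9.70 in normal CD29hiCD24+ against 4.40 to 4.86 in normal CD29+CD24+ cells, but 6.64 to 8.61 in tumour CD29hiCD24+ against 8.35 to 11.30 in tumour CD29+CD24+ cells. The tumour gate difference was -2.30 (adjusted p = 0.0213) and the interaction -7.10 ± 0.89.

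Of 14 hormone-sensing genes tested 11 were lower in tumour than in normal CD29+CD24+ cells and 6 were lower in tumour CD29hiCD24+ cells. The interaction was negative for 0 and positive for 5, with a median of 2.57, and the source was loss in CD29+CD24+ cells for all 5. With the tumour or pool as a replicate block, random or fixed, 9 were positive. Without tumour A or B 8 were positive, and 3 were without tumour C, D or E or pool F, or with only the 16 gate arrays. Wnt4 read 11.00, 10.96 and 11.21 in normal and 5.23 to 7.61 in tumour CD29+CD24+ cells, and 5.93 to 7.81 in normal and 7.09 to 9.07 in tumour CD29hiCD24+ cells. Its interaction was 5.06 ± 0.71 (SE, adjusted p = 1.08e-05). Foxa1, a pioneer factor for hormone receptors, and Cited1, a coactivator of the oestrogen receptor, gave 2.92 (adjusted p = 0.0336) and 3.60 (0.0384), and without the CD29hiCD24+ array of pool F these became 1.83 (0.152) and 2.0 (0.178).

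Esr1, the oestrogen receptor, had an interaction of 3.95 that missed the threshold (adjusted p = 0.0809) and passed it with the random (0.015) or fixed (0.00297) replicate block and without tumour A (0.0292) or B (0.0448), and Pgr, the progesterone receptor, kept a called gate difference in tumours of -2.15 (adjusted p = 0.0201) while it fell in both gates. Spdef, an ETS factor of secretory epithelium, read 8.47, 7.89 and 7.11 in normal CD29+CD24+ cells and 2.48 to 3.07 in the tumours (interaction 4.08 ± 0.56). Ehf, another epithelial ETS factor, was gained in the CD29hiCD24+ gate: it read 2.86, 6.67 and 6.16 in normal CD29hiCD24+ cells and 10.50 to 12.02 in tumour CD29hiCD24+ cells, a gain of 6.35 (interaction 3.62 ± 0.81). Tfap2c, an AP-2 factor, was gained in tumour CD29+CD24+ cells (-3.46 ± 0.35). Of 18 luminal factors 2 were negative and 7 positive, and 4 of the 7 kept their call without the CD29hiCD24+ array of pool F. The positive count was 4 without tumour D and 2 without both arrays of pool F.

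Of 29 epithelial junction genes 16 were positive and 2 negative, with a median of 1.77, with 11 positive without the CD29hiCD24+ array of pool F and 8 without pool F. Cldn8, a claudin of tight junctions, gained 3.0 in tumour CD29hiCD24+ cells (interaction 4.79 ± 1.35), and gave 2.87 (adjusted p = 0.11) with the 3' minus 5' signal of actin as a covariate. Cgn, cingulin, a scaffold of tight junctions, gave 2.92 by loss in tumour CD29+CD24+ cells.

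Krt6a, a keratin of stressed epithelium, was gained in the tumour CD29hiCD24+ gate. It read 14.25, 13.77 and 13.55 in normal CD29+CD24+ cells and 7.80, 10.94 and 10.32 in normal CD29hiCD24+ cells, and 14.41 to 15.00 and 14.62 to 14.87 in the tumour populations (interaction 4.23 ± 0.57). Among genes of cell division Kif2c, a microtubule depolymerase, Anln, the cytokinesis protein anillin, and Aurka, a mitotic kinase, gained 4.80, 5.44 and 3.46 in tumour CD29hiCD24+ cells, with interactions of 5.76 ± 0.61, 5.29 ± 0.60 and 4.63 ± 0.76. Of 23 proliferation genes 21 were higher in tumour CD29hiCD24+ and 17 in tumour CD29+CD24+ cells. The interaction was positive for 7 and negative for 1, with a median of 0.51, and Mki67 rose in both gates, by 4.99 and 5.33 (interaction 0.34, adjusted p = 0.763).

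Among genes lost from tumour CD29+CD24+ cells, Aoc1, diamine oxidase, had the largest interaction, 6.68 ± 1.22 (SE, adjusted p = 0.000194). It read 12.72, 10.67 and 10.45 in normal and 3.01 to 6.09 in tumour CD29+CD24+ cells. Tesc, tescalcin, gave 6.27 ± 1.54, and tumour C stood apart, at 5.97 and 7.33 in its 2 gates against 1.94 to 2.33 in the other tumours. Qsox1, a sulfhydryl oxidase of the secretory pathway, and Arg1, arginase, moved in both gates, with interactions of 6.18 ± 0.94 and 5.17 ± 1.17.

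For 637 genes the interaction passed the test although no normal gate difference did, 336 with a positive and 301 with a negative interaction. In 100 of the 336 and 68 of the 301 the tumour gate difference itself passed. Squamous differentiation genes often had a negative interaction: of 28 tested 11 were negative and 5 positive, with a median interaction of -1.28. These counts include 6 shrunken genes, which lie outside the 637. Dsc1, a desmosomal cadherin of cornifying layers, read 2.74 to 2.81 in normal CD29+CD24+ and 2.77 to 3.90 in normal CD29hiCD24+ cells. In tumours it read 7.80, 3.27, 9.03, 8.56 and 9.0 in CD29+CD24+ cells and 2.77 to 3.09 in CD29hiCD24+ cells, so that 4 of the 5 tumours carried it in the first gate alone and tumour B was low (interaction -5.05 ± 1.42, adjusted p = 0.00704).

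Dsg1a, a desmoglein that partners Dsc1, gave -3.61 ± 0.77, with 5.56 to 9.16 in tumour CD29+CD24+ and 3.59 to 4.72 in tumour CD29hiCD24+ cells. Krt10, the keratin of suprabasal epidermis, gave -3.69 ± 1.21 (adjusted p = 0.0184), and Casp14, a caspase of cornification, -3.48 ± 1.19 (adjusted p = 0.0228), both of which lost their call without pool F (0.0621 and 0.0807). Without that pool 6 of the 11 squamous genes kept a negative call and 3 were positive. The negative count was 7 without pool G or H, and the positive count 3 without tumour B. Tumour B was the lowest of the 5 in Dsc1, Dsg1a, Krt10 and Casp14 in the CD29+CD24+ gate.

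Several genes of the response to low oxygen had a positive interaction. Ndufa4l2, a mitochondrial protein induced by hypoxia, lay at 1.86 to 1.90 in all 6 normal gate arrays, at 1.87 to 4.24 in tumour CD29+CD24+ cells and at 7.89, 5.49, 7.58, 5.86 and 7.56 in tumour CD29hiCD24+ cells. Its interaction was 4.11 ± 1.05 (SE, adjusted p = 0.0035). Car9, a carbonic anhydrase, read 6.43 to 8.57 in tumour CD29hiCD24+ and 2.85 to 5.87 in tumour CD29+CD24+ cells (interaction 3.49 ± 0.83). Bnip3, a mitophagy receptor, gained 3.14 in CD29hiCD24+ cells (3.88 ± 0.58) and was a shrunken gene, with a called normal gate difference. The list as a whole was split, with 9 of 22 positive and 5 negative and a median of 0.20, and 5 were positive without pool F. These counts include 8 shrunken genes.

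Other large interactions without a called normal gate difference were less steady. Mmp9, a gelatinase, read 6.46 to 12.19 in tumour CD29hiCD24+ and 3.88 to 7.38 in tumour CD29+CD24+ cells (interaction 3.82 ± 1.44, adjusted p = 0.0383), and lost its call without tumour B, D or E or pool G or H (adjusted p 0.0616 to 0.178). Nppb, a natriuretic peptide, was higher in both tumour gates, by 5.32 in CD29+CD24+ and 8.91 in CD29hiCD24+ cells (interaction 3.59 ± 1.30, adjusted p = 0.0306), and lost its call without tumour A or E or pool F, G or H (adjusted p 0.052 to 0.136).

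The gate difference was kept in some genes. In 188 it passed the test with the same sign in normal glands and in tumours, 101 higher and 87 lower in CD29hiCD24+ cells, and for 115 of these the interaction was not called. Elf5, a factor of the milk-secreting lineage, was one, with gate differences of -4.12 in normal glands and -2.88 in tumours (adjusted p = 0.0305 in tumours).

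Pairs of gate differences were also set side by side for the 55 genes with the largest interactions in each class. The gate differences of the 5 tumours and 3 pools did not overlap for 54 of them, each with p = 0.0357 in an exact two-sided permutation test, the smallest that 5 against 3 allows. Over all genes 47.2% had gate differences that did not overlap, and the 55 were chosen for their size. The interactions nearest the threshold were -0.69 for Crybg1 (adjusted p = 0.0496) inside it and 0.40 for Cntd1 (adjusted p = 0.0501) outside it.

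Numbers in the sample descriptions fall into 3 ranges, 19 to 24, 56 to 64 and 82 to 95, and tumour E alone shares the last with the 3 pools. With the range as a block 6295 genes had a called interaction. Of 5010 genes shrunken in both that fit and the main one, 4111 (82.1%) kept their source. The source swapped from CD29+CD24+ to CD29hiCD24+ for 89 and the other way for 16. Within the shared range, tumour E against the pools, 5661 of the 5665 genes kept their sign. The arrays of tumour E and of the pools had helped to choose these genes, so their sign was largely fixed in advance. That fit has 1 tumour, so its spread comes from the pools alone and tumour E is assumed to vary as they do. There Ehf (2.39, adjusted p = 0.371), Spdef (4.12, adjusted p = 0.0562), Krt6a (4.05, adjusted p = 0.0593) and Cldn8 (3.72, adjusted p = 0.176) lost their call, and 4 epithelial junction genes were positive in place of 16, 2 luminal factors in place of 7 and 1 Notch gene in place of 3, while 6 endothelial genes were negative in place of 10. The 3' minus 5' signal of actin was taken as a sign of short RNA. It was 1.61 ± 0.21 (SD, n = 3) in normal CD29+CD24+ and 2.53 ± 0.35 in normal CD29hiCD24+ arrays. In the tumour gates it was 2.06 ± 0.36 and 2.03 ± 0.30 (SD, n = 5). The same signal of Gapdh did not show this rise, at 2.24 ± 0.03 in normal CD29+CD24+ and 2.1 ± 0.29 in normal CD29hiCD24+ arrays. Whether the RNA of normal CD29hiCD24+ cells was shorter was not tested. With the actin signal as a covariate 4497 interactions were called, 4133 of them among the 5665. Positive counts then fell from 16 to 7 for epithelial junctions, 7 to 2 for luminal factors, 4 to 1 for luminal keratins and surface genes, 5 to 3 for hormone sensing and for the squamous list, 3 to 1 for Notch and 3 to 0 for TGF-beta, BMP and Id. Its part in the other calls was not tested.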

How the data were processed

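The values analysed are log2 signals of probe sets as deposited by the authors, 1 column per array. RMA, GCRMA and Partek are named in the submitters' processing notes. Neither version, role nor order was stated for them in the sources used. That the scale is log2 follows from the values themselves (0.489 to 16.06, array medians 3.26 to 3.41). Within a group, arrays correlated at 0.950 to 0.991. Precision is set by the number of arrays.

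The table holds 45101 probe sets: 34945 with 1 gene name, 932 with several, 9160 with none and 64 controls. A gene identifier of the reference table matched 34741 of them, with 0 names changed. A probe set was kept where at least 3 arrays exceeded 2.83, the 40th percentile of all values, which left 24278. Each gene was represented by its kept probe set of highest mean (13485 of 18193 genes). The model, fitted with limma (version 3.58.1) in R (version 4.3.3), had a mean for each of 6 groups over all 24 arrays and a moderated variance with a trend on mean signal. The call threshold was an adjusted p (Benjamini-Hochberg, all genes tested) under 0.05, and a log2 difference of 1 is 2-fold. Values after ± are SEs unless SD is written. The script was tested on simulated data.

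The members, the sorting rule and the 28 gene lists were chosen with earlier results of these data known, and list counts are descriptions. Of 504 list genes 442 had a kept probe set. Genes were named as the 6 with the largest interaction in each class, the 5 turned round in each direction, the 6 in each direction with no called normal gate difference, and list members.

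Titles pair the gates of a tumour or pool. For the third pool 2 titles lack the letter, and H was assigned as the only one left. With group means removed, the gates of a tumour correlated at 0.395 to 0.651, against a median of -0.148 between tumours. The gates of pool F gave -0.038, of pool G -0.016 and of pool H 0.142, while different pools reached 0.161. The pairing is therefore borne out for tumours and not for any of the pools. Alternatives were other fits, filters, probe set rules and normalization, a replicate block, covariates, and leaving out arrays. Promoters came from the RefSeq table.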

Additional observations from a re-analysis of the deposited data

Results flagged for a closer look

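The gate difference differed between tumours and normal glands, by the interaction test, for 5665 genes, and these are the members described above.

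In 16 of 110 groups of 5 tumour arrays looked at, over the 55 named genes in both gates, 1 array stood far from the others by Dixon's test. About 1 in 20 would do so by chance if values were normally distributed, but some flagged groups lay partly in the low band. The groups are not independent, and Igfbp3, Glycam1 and Tesc were each flagged in both gates of the same tumour. The excess over that rate was not tested. Tumour A read lowest for Igfbp3 (12.03 in CD29+CD24+ and 12.09 in CD29hiCD24+ cells) and highest for Glycam1 (12.35 and 9.35) and, in CD29+CD24+ cells, for Calml3 (12.12). Tumour B stood apart in CD29+CD24+ cells for Ccdc162 (3.81), Syn2 (3.61) and Dsc1 (3.27). Tumour C stood apart for Tesc (5.97 and 7.33) and, in CD29hiCD24+ cells, for Selp (7.58). Tumour D did so for Selp (8.34) and Defb1 (9.93) in CD29+CD24+ cells and for Mest (5.65) in CD29hiCD24+ cells. Tumour E was apart in CD29hiCD24+ cells for Fabp4 (5.71) and Il6 (7.25).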

How the results depend on the processing

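Over the alternatives run, from only the 16 arrays to leaving out each tumour or pool, the number of called interactions stayed within 1.5 times of 5665 except for tumour E against the pools (3730). Leaving out each tumour or pool gave 4206 (without pool F) to 5637 (without tumour A). With the tumour or pool as a replicate block, 6876 (random) and 6889 (fixed) were called, including 5665 and 5646 of the 5665. The random block moved no class count by over 1.5 times, and classes were not counted with the fixed block. The replicate block raised the positive hormone-sensing genes from 5 to 9 and gave calls to Esr1 (both forms), Itga6 (random) and Itgb4 (fixed). Of the 55 named genes 43 kept their call in every alternative, and of 1155 gene and alternative pairs 53 lost the call and 0 changed sign. Quantile normalization called 2320 negative and 3758 positive interactions, against 2669 and 2996, and moved the median over all genes to 0.16. It gave 584 genes in place of 385 for those high in normal CD29+CD24+ cells that moved in both gates, and 544 and 192 in place of 336 and 301 without a called normal gate difference. That first class held 219 genes with the actin covariate, 236 without the CD29hiCD24+ array of pool F, 129 for tumour E against the pools and 680 when sorted by share. The 535 genes gained in CD29hiCD24+ cells became 859 with the description range as a block and 328 with the actin covariate. Leaving out each tumour or pool gave 157 to 386 for that first class, 333 to 586 for the genes gained in CD29hiCD24+ cells and 283 to 482 for the 469 genes that moved in both gates, with the lowest counts without pool F, pool F and pool H. For tumour E against the pools, the 1633 genes lost in CD29+CD24+ cells became 776 and the 469 became 302. The cause of these shifts was not tested.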
